A study of Mus musculus with 2 samples.

Results

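The 3 Akr1b genes described here, Akr1b7, Akr1b3 and Akr1b8, were taken by symbol from the 31057 features of a single-cell study of the mouse adrenal cortex, and each symbol matched 1 feature. Cells sorted from adrenal glands of male SF1-Cre; Rosa mTmG mice aged 15 weeks had been profiled in 2 droplet libraries of 1 group. In these mice Cre is driven by SF1, the nuclear receptor of steroid-making tissue, and the mTmG reporter at the Rosa locus exchanges membrane tdTomato for membrane GFP in recombined cells, so every animal carried both alleles and no group lacked them. The label gives wild type beside these alleles, the sort kept cells positive for the DNA dye Vybrant DyeCycle Ruby and negative for DAPI, and the 26 adrenals of the series were pooled. The sources used here do not tell which animals went into which library, so p-values cannot be tied to a spread between animals. They rest only on how differences between cell groups vary between these 2 libraries. That spread is estimated over all groups and moderated across genes, so it is not the spread of 1 comparison of 1 gene. Of 5040 and 2288 barcodes in libraries 1 and 2, holding 92905273 and 28023733 unique molecular identifiers (UMIs, each standing for 1 captured RNA molecule), 4689 and 1970 cells were kept and 4583 and 1884 of them were cortical. The libraries shared 4 barcodes.

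Akr1b enzymes are aldo-keto reductases, which use NADPH to reduce aldehydes and ketones to alcohols. Akr1b3 is the aldose reductase of the mouse and turns glucose into sorbitol, the opening step of the polyol pathway. Akr1b7, first known from the mouse vas deferens, is abundant in the adrenal cortex, responds there to the pituitary hormone ACTH, and can reduce isocaproaldehyde, the aldehyde released when Cyp11a1 cleaves the side chain of cholesterol; prostaglandin F2α synthase activity has also been described for it. Star carries cholesterol to the inner mitochondrial membrane, where Cyp11a1 works. Akr1b8 is a close relative known to be induced by fibroblast growth factor in cultured mouse cells.

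Cortical cells were grouped by their CPM (UMIs of the gene per 1000000 UMIs of the cell) of 3 genes. Aldh1a1, a retinaldehyde dehydrogenase, defined Aldh1a1-high cells at 500 CPM or more. Cyp11b1, which makes corticosterone, defined Cyp11b1-high cells at 1000 CPM or more and Cyp11b1-intermediate cells at 300 CPM or more. Cyp11b2, which makes aldosterone, defined Cyp11b2-high cells at 300 CPM or more. Cells past 300 CPM of both Cyp11b genes were called co-expressing, and the remaining cells low in both. Libraries 1 and 2 held 35 and 29 Aldh1a1-high, 493 and 340 Cyp11b1-high, 516 and 189 Cyp11b1-intermediate, 3276 and 1128 low-in-both, 17 and 13 co-expressing, and 246 and 185 Cyp11b2-high cells. The groups are ranges of a level rather than cell types. In library 1, for example, 129 cells lay less than 20% below the Cyp11b2 threshold and 89 less than 20% above it, whereas the Aldh1a1 threshold had 2 cells just below and 5 just above. Cyp11b1 and Cyp11b2 are near-identical neighbours, and reads may be shared between them. In the shallowest cells kept, at 1000 UMIs, a single UMI is enough to pass any of these thresholds. Co-expressing cells of library 2 were shallow, with a median of 5863 UMIs, against 15267 in low-in-both and 18126 in Cyp11b2-high cells. In library 1 their median was 18305 UMIs. A single cell gave 18.34% and 18.35% of the UMIs of the co-expressing group in libraries 1 and 2.

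The groups carried other markers of their zones. Vsnl1, a marker of the outer, aldosterone-producing zona glomerulosa, stood at 57.8 and 0 CPM in Aldh1a1-high, 147 and 123 CPM in Cyp11b1-high and 808 and 1027 CPM in Cyp11b2-high cells of libraries 1 and 2. Aldh1a1-high cells also carried Cyp11b1, a marker of the zona fasciculata, at 1935 and 2486 CPM, against 1958 and 2852 CPM in Cyp11b1-high cells. Abcb1b stood at 4588 and 8303 CPM in Aldh1a1-high, but only 134 and 218 CPM in Cyp11b1-high and 20.63 and 16.65 CPM in Cyp11b2-high cells. Aldh1a1-high cells had no UMI of the X-zone markers Pik3c2g and Akr1c18, which were at or near 0 in the other cortical groups too. Thrb, a thyroid hormone receptor also expressed in the X-zone, stood at 40.3 and 103 CPM in Aldh1a1-high, 13.5 and 21.7 CPM in Cyp11b1-high and 8.70 and 12.8 CPM in Cyp11b2-high cells. Across the 6 cortical groups, the summed level of 12 lymphocyte markers was 0 to 0.471 CPM, of 12 myeloid markers 0 to 7.34 CPM, of 8 medullary markers 0 to 4.89 CPM, of 8 endothelial markers 0 to 44.8 CPM and of 8 stromal or capsular markers 0 to 29.1 CPM. The endothelial sum was 8.76 and 7.34 CPM in Aldh1a1-high, 30.7 and 18.1 CPM in Cyp11b1-high and 11.1 and 16.99 CPM in Cyp11b2-high cells, and the stromal or capsular sum 8.76 and 0, 11.7 and 4.94, and 18.6 and 14.2 CPM in the same groups. The part of these markers in the results was not tested. The nuclear RNA Malat1 differed between groups, with 27790 and 56570 CPM in Aldh1a1-high, 29300 and 39340 CPM in Cyp11b1-high and 20620 and 26700 CPM in Cyp11b2-high cells, and its part in the results was not tested.

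The 3 genes lie side by side on mouse chromosome 6 (build GRCm38, GENCODE vM21), with Akr1b10 between the last 2. Akr1b3 (ENSMUSG00000001642) spans chr6:34302434-34317478 on the minus strand. Akr1b8 (ENSMUSG00000029762) spans chr6:34354119-34368463, Akr1b10 chr6:34384218-34396950 and Akr1b7 (ENSMUSG00000052131) chr6:34412334-34423142, all on the plus strand, and each of the 4 genes has transcripts of up to 10 exons. Akr1b7 and Akr1b10 were both lower in Aldh1a1-high cells while Akr1b8 was not, and the 3 upstream sequences shown were picked with this known. They are RefSeq sequences of GRCm38.p6 on the plus strand, 220 bases each, from base 250 to base 31 before the RefSeq start. Capitals mark the only kind of match found, AAGGNCA read on the minus strand, the core letters bound by SF1 and related nuclear receptors.
Akr1b7, chr6:34412112-34412331: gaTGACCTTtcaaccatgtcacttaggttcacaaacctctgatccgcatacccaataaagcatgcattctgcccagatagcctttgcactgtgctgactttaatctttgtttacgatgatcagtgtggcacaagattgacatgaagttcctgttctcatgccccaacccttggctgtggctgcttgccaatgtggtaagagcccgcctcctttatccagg
Akr1b10, chr6:34383997-34384216: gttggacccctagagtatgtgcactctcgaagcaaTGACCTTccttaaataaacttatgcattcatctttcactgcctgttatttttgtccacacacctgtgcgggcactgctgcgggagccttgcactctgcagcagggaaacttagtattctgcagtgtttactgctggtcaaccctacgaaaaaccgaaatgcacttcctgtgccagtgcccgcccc
Akr1b8, chr6:34353896-34354115: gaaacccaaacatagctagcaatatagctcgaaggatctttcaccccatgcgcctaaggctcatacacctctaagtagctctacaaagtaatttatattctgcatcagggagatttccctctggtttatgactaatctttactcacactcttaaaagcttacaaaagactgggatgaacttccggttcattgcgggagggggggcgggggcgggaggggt
The match began 248 bases before the start in Akr1b7 and 215 bases before it in Akr1b10, with the letters TGACCTT in both, and these letters were not in the window of Akr1b8. AAGGNCA on either strand was present in 15.6% of 32851 promoters in the same window, so a match is common. Any link between a match and the level of a gene was not tested. TGACG, core letters of cAMP response elements, was searched on both strands too, was in 14.8% of promoters and was in none of the 3 windows. The sequence of the Akr1b3 promoter is not shown.

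The close similarity of the family bears on the counts. Over the whole transcript, Akr1b7 was 89.4% identical to Akr1b10 in an alignment of 963 bases and 86.3% identical to Akr1b8 over 930 bases. Within its last 500 bases, where 3′ libraries collect most reads, the alignment with Akr1b10 covered only the first 246 bases at 87.4% identity, and none of the 4 best matching genes reached beyond that base. Akr1b3 was 99.7% identical over 951 bases to Gm6644, and in its last 500 bases matched it only over the first 137. Reads of Akr1b3 may be shared with such copies, and its level is uncertain to that extent.

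Akr1b7 made up most of the RNA of these 3 genes. Counts at the 3′ end do not scale with gene length, so the CPM of the 3 genes can be set side by side. A pooled level is the UMIs of a gene summed over the cells of a group and library, per 1000000 UMIs of those cells. Over all cortical cells Akr1b7 stood at 1128 and 1093 CPM in libraries 1 and 2, Akr1b3 at 256 and 247 CPM, and Akr1b8 at 64.1 and 59.7 CPM. Akr1b7 gave 77.9% and 78.1% of the UMIs of the 3 genes. Akr1b10, which these shares leave out, stood at 197.5 and 206.9 CPM over all cortical cells.

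By pooled level, Akr1b7 was highest in Cyp11b2-high, co-expressing and Cyp11b1-high cells, lower in Cyp11b1-intermediate and low-in-both cells, and lowest in Aldh1a1-high cells. Aldh1a1-high cells were themselves rich in Cyp11b1, at 1935 and 2486 CPM. The pooled level in libraries 1 and 2 was 807 and 225 CPM in Aldh1a1-high, 1390 and 1962 CPM in Cyp11b1-high, 1051 and 902 CPM in Cyp11b1-intermediate, 1048 and 804 CPM in low-in-both, 1672 and 2013 CPM in co-expressing and 1889 and 1692 CPM in Cyp11b2-high cells. The libraries did not order the Cyp11b1-high and Cyp11b2-high groups alike, with Cyp11b1-high lower in library 1 and higher in library 2. The 3 highest groups overlapped between libraries and so did the intermediate and low-in-both groups, but no library of the second set reached any of the first. Both Aldh1a1-high values lay below every other cortical value except that library 1, at 807 CPM, was level with low-in-both cells of library 2, at 804 CPM.

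**Figure D1:**
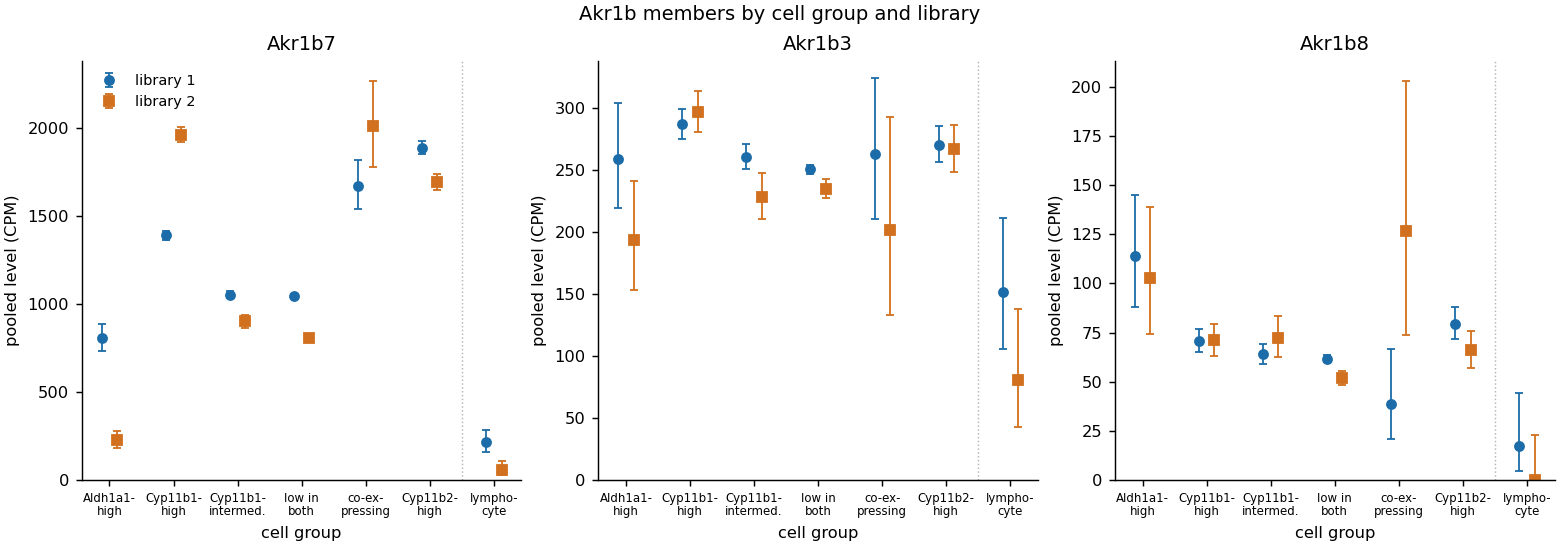
Pooled level (CPM, linear axis from 0) of Akr1b7, Akr1b3 and Akr1b8 in each cell group, with library 1 as circles, library 2 as squares and exact 95% Poisson intervals that cover counting error only; lymphocytes stand right of the dotted line. Akr1b7 falls to 807 and 225 CPM in Aldh1a1-high cells, against 1889 and 1692 CPM in Cyp11b2-high cells, while Akr1b3 stays between 193 and 297 CPM across the cortical groups.

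Akr1b3, which feeds glucose into the polyol pathway, was nearly even. It stood at 259 and 193 CPM in Aldh1a1-high, 287 and 297 CPM in Cyp11b1-high, 261 and 228 CPM in Cyp11b1-intermediate, 251 and 235 CPM in low-in-both, 263 and 201 CPM in co-expressing and 271 and 267 CPM in Cyp11b2-high cells. Both Cyp11b1-high values were above those of every other group, both Cyp11b2-high values came next, and the other 4 groups overlapped one another below them.

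Akr1b8 was the rarest of the 3, and its highest pooled levels outside the co-expressing group were in Aldh1a1-high cells. It stood at 114 and 103 CPM in Aldh1a1-high, 70.8 and 71.1 CPM in Cyp11b1-high, 64.0 and 72.5 CPM in Cyp11b1-intermediate, 61.7 and 52.0 CPM in low-in-both, 38.8 and 127 CPM in co-expressing and 79.5 and 65.9 CPM in Cyp11b2-high cells. The co-expressing values rested on 13 and 17 UMIs. Apart from that group, both Aldh1a1-high values were above all others, on 65 and 42 UMIs.

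Differences between groups were tested on the summed UMIs of 12 group-by-library sums with edgeR's quasi-likelihood test, adjusted by Benjamini-Hochberg over 11535 genes. All 3 genes passed the low-count filter. In Aldh1a1-high cells Akr1b7 fell to 0.284 times its Cyp11b2-high level (log2 difference -1.82 ± 0.25 SE, edgeR adjusted p = 4.33e-06), lower in both libraries. Akr1b3 had a log2 difference of -0.27 ± 0.12 (edgeR adjusted p = 0.101) and Akr1b8 one of 0.52 ± 0.21 (edgeR adjusted p = 0.0753), so 1 of the 3 members passed, in a comparison in which 28.0% of all genes were called, 1571 higher and 1663 lower. DESeq2 split its calls differently, with 1987 genes higher and 1239 lower. The size of the Akr1b7 difference varied between the libraries, at -1.25 in library 1 and -2.80 in library 2. That gap is wider than the SE, so the adjusted p does not measure the spread of this difference between the libraries. The SE also depended on the filter, at 0.12 without the low-count filter.

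Against Cyp11b1-high cells, Akr1b7 was again lower in Aldh1a1-high cells, at 0.318 times (log2 difference -1.65 ± 0.25, edgeR adjusted p = 4.11e-05; 15.1% of genes were called, 939 higher and 799 lower, against 1210 higher and 541 lower by DESeq2). The value was -0.74 in library 1 and -2.97 in library 2, and without the library term the adjusted p of edgeR was 0.0867. Akr1b8 was higher, at 1.59 times (log2 difference 0.66 ± 0.21, edgeR adjusted p = 0.0349). That call was lost when every cell was thinned to 5000 UMIs, with a log2 difference of 0.13 (edgeR adjusted p = 0.89), and without the library term (edgeR adjusted p = 0.287). Akr1b3 had a log2 difference of -0.30 ± 0.12 (edgeR adjusted p = 0.0967).

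Between Cyp11b1-high and Cyp11b2-high cells no member passed the test, although 30.6% of genes did. The log2 differences were -0.16 ± 0.21 for Akr1b7, 0.03 ± 0.07 for Akr1b3 and -0.15 ± 0.12 for Akr1b8 (edgeR adjusted p = 0.6, 0.788 and 0.397). For Akr1b7 the libraries had opposite signs, with -0.51 in library 1 and 0.16 in library 2, and likewise for Akr1b8, with -0.24 and 0.06.

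**Figure D2:**
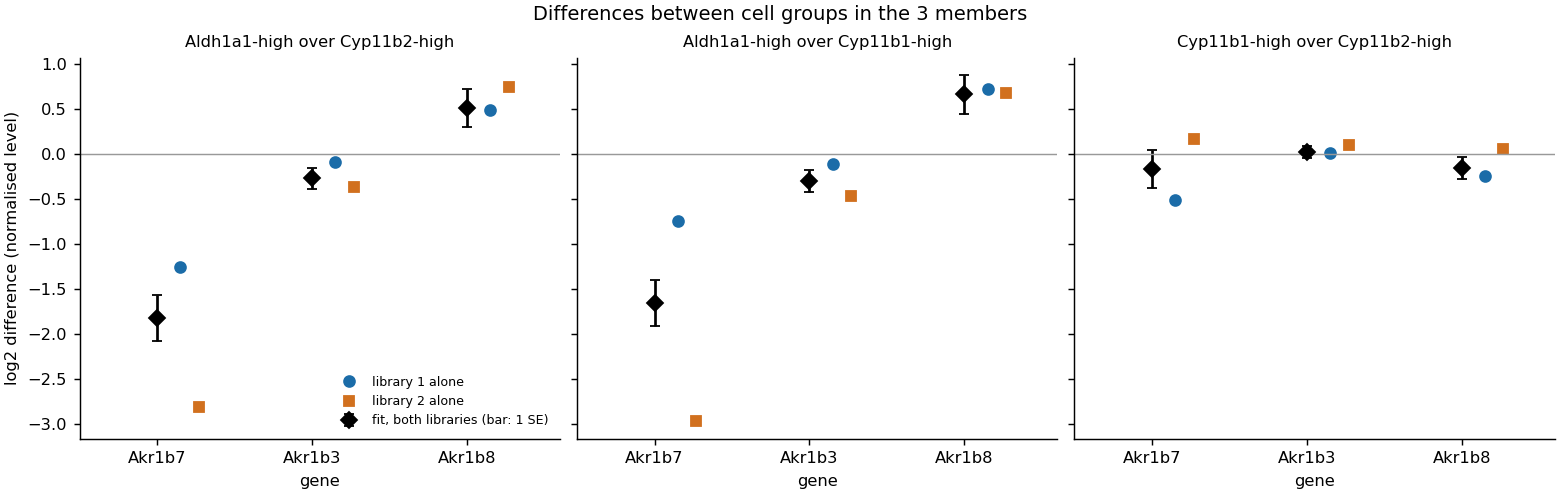
Log2 differences of the 3 members between cell groups, with the estimate from both libraries as diamonds (bars 1 SE) and each library alone as a circle (library 1) or square (library 2). Akr1b7 lies at -1.82 and -1.65 in the panels with Aldh1a1-high cells and near 0 between Cyp11b1-high and Cyp11b2-high cells.

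Cyp11b1-intermediate and low-in-both cells had less Akr1b7 than Cyp11b2-high cells. The log2 difference was -0.97 ± 0.21 in Cyp11b1-intermediate cells (edgeR adjusted p = 0.00219; 16.7% of genes called, 6.86% higher and 9.82% lower) and -1.01 ± 0.21 in low-in-both cells (edgeR adjusted p = 0.00178; 12.5% called, 5.48% higher and 6.97% lower). Each library alone gave values of -0.91 and -0.996 in intermediate and -0.88 and -1.13 in low-in-both cells. Neither call was kept by DESeq2 (adjusted p = 0.261 and 0.3) or without the library term (edgeR adjusted p = 0.546 and 0.799). Akr1b8 was lower in low-in-both cells (-0.40 ± 0.11, edgeR adjusted p = 0.0157), and Akr1b3 was lower in intermediate cells (-0.21 ± 0.07, edgeR adjusted p = 0.04). Neither call was kept by DESeq2 (adjusted p = 0.381 and 0.162), without the library term (edgeR adjusted p = 1.0 and 0.973) or with doubled thresholds (edgeR adjusted p = 0.0735 and 0.124). That of Akr1b3 was also lost with RLE size factors, halved thresholds and thinned cells (edgeR adjusted p = 0.0549, 0.417 and 0.321). In co-expressing cells, where 0.00867% of genes were called, Akr1b7 had a log2 difference of -0.13 ± 0.24, Akr1b3 one of -0.28 ± 0.16 and Akr1b8 one of -0.35 ± 0.34 against Cyp11b2-high cells, and none passed (edgeR adjusted p = 0.936, 0.742 and 0.851). That fit called 1 gene, against 835 at an unadjusted p under 0.05, and DESeq2 also called 1.

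Inside the Aldh1a1-high group Akr1b7 was lower the more Aldh1a1 a cell carried, and the other members showed no such gradient. The bands of Aldh1a1 used for this were chosen after the values were seen, and the levels are a description. In library 1 Akr1b7 stood at 1128 CPM in cells without Aldh1a1, 1313 CPM at up to 100 CPM of Aldh1a1, 1220 CPM at 100 to 500, 1805 CPM at 500 to 1000, 863 CPM at 1000 to 2000, 422 CPM at 2000 to 4000 and 161 CPM at 4000 or more. In library 2 the same bands held 1081, 2411, 3483, 2160, 206, 106 and 99.7 CPM. Akr1b7 was thus below its level in cells without Aldh1a1 from 1000 CPM of Aldh1a1 upwards in both libraries, and in every band under 1000 CPM it was above that level.

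The bands hold few cells. From 500 CPM upwards library 1 had 9, 8, 7 and 11 cells and library 2 had 2, 3, 12 and 12. Library 1 therefore had more of its Aldh1a1-high cells in the lowest of these bands, 9 of 35 against 2 of 29 in library 2. With all 3 grouping thresholds doubled, the log2 difference of Akr1b7 was -2.94 against Cyp11b2-high and -3.08 against Cyp11b1-high cells, and with them halved -0.93 and -0.76, called in each case. At 4000 CPM or more of Aldh1a1, pooled over both libraries, Akr1b7 stood at 131 CPM, Akr1b3 at 218 CPM and Akr1b8 at 108 CPM, against 1117, 254 and 62.4 CPM in cells without Aldh1a1. In the same cells Star stood at 4640 CPM and Cyp11a1 at 5921 CPM, against 2688 and 3380 CPM in cells without Aldh1a1. Mc2r, the ACTH receptor, stood at 41.1 CPM there against 341 CPM.

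**Figure D3:**
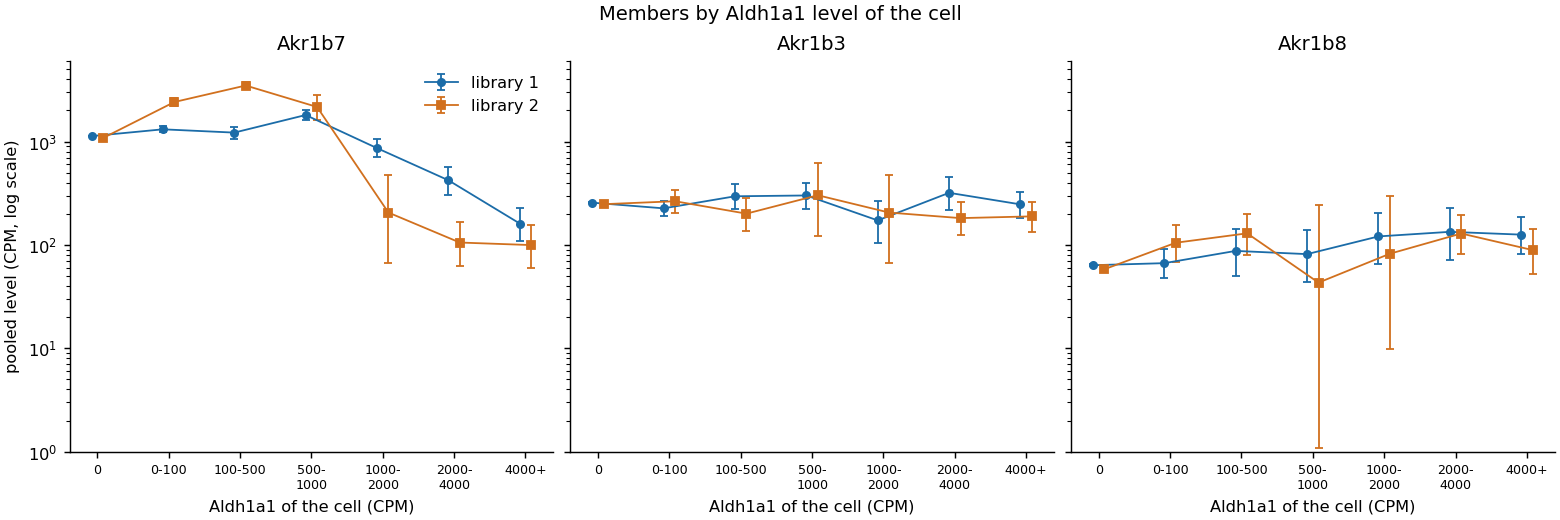
Pooled level (CPM, log axis) of each member in cortical cells ordered by their Aldh1a1 level, with library 1 as circles, library 2 as squares and exact 95% Poisson intervals. From the band of 1000 to 2000 CPM of Aldh1a1 on, Akr1b7 lies below its level in cells without Aldh1a1, reaching 161 and 99.7 CPM in the last band, where Akr1b3 is at 247 and 189 CPM and Akr1b8 at 126 and 89.2 CPM.

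Few Akr1b7 UMIs remained in the Aldh1a1-richest cells. Free RNA enters every droplet, and lymphocytes, which make no steroids, had 217 and 55.7 CPM of Akr1b7 in libraries 1 and 2, on 50 UMIs in 44 cells and 9 UMIs in 41 cells. Of the 50 UMIs in library 1, 25 came from 1 cell. The band with 4000 CPM or more of Aldh1a1 held 32 Akr1b7 UMIs in 11 cells and 19 UMIs in 12 cells, and 7 and 2 of these cells had any. Median depth was 19523 and 15519 UMIs in this band, several times that of lymphocytes, so CPM do not put the 2 kinds of cell on a common scale for free RNA, and the part of free RNA in these UMIs was not tested. With every cell thinned to 2000 UMIs, Akr1b7 was seen in 47.1% and 15.4% of Aldh1a1-high and 95.5% and 83.9% of Cyp11b2-high cells, and in 9.52% and 8.11% of lymphocytes. Median depths before thinning were 16048 and 14543 UMIs in Aldh1a1-high cells, 21054 and 18126 UMIs in Cyp11b2-high cells and 3410 and 3793 UMIs in lymphocytes.

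Akr1b3 and Akr1b8 stood above their lymphocyte levels in cortical cells. Akr1b3 was at 256 and 247 CPM in all cortical cells and at 152 and 80.5 CPM in lymphocytes. After thinning to 2000 UMIs, 39.9% and 39.4% of cortical cells and 21.4% and 13.5% of lymphocytes had an Akr1b3 UMI, while Star was in 96.1% and 96.6% of cortical cells and 9.52% and 8.11% of lymphocytes. Per Star UMI, cortical cells held 0.0954 and 0.089 Akr1b3 UMIs and lymphocytes 0.34 and 0.619. Akr1b3 in lymphocytes was thus not in the ratio to Star found in cortical cells, whereas Akr1b7 was close to it, with 0.42 and 0.394 UMIs per Star UMI in cortical cells and 0.485 and 0.429 in lymphocytes. These lymphocyte ratios rest on 103 and 21 Star UMIs, of which a single cell held 48 and 10. The source of these UMIs was not tested. Akr1b8 gave 4 and 0 UMIs in lymphocytes, the 0 allowing a level of up to 18.6 CPM, against 64.1 and 59.7 CPM in cortical cells.

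Cells of 1 group differed widely in Akr1b7. In Cyp11b1-high cells the 10th percentile, median and 90th percentile of the level per cell were 273, 996 and 3442 CPM in library 1 and 233, 1200 and 6232 CPM in library 2. In Cyp11b2-high cells they were 760, 1530 and 3566 CPM in library 1 and 349, 1364 and 3056 CPM in library 2. Thus Cyp11b1-high cells reached lower and, in library 2, higher than Cyp11b2-high cells around medians that were lower in both libraries. In Aldh1a1-high cells the same percentiles were 0, 355 and 4276 CPM in library 1 and 0, 0 and 1117 CPM in library 2. Their 90th percentile in library 1, over 35 cells, was thus above that of Cyp11b1-high cells. After thinning to 5000 UMIs per cell, the variance of Akr1b7 over its mean was 7.67 and 16.2 in Cyp11b1-high and 4.77 and 5.85 in Cyp11b2-high cells, where counting error alone gives about 1. Akr1b3, at 1.14 and 1.23, and Akr1b8, at 1.09 and 1.19, stayed near that in Cyp11b1-high cells. At 5000 UMIs, 10 of 28 and 20 of 25 Aldh1a1-high cells had no Akr1b7 UMI, against 33 of 431 and 19 of 261 Cyp11b1-high and 0 of 233 and 7 of 149 Cyp11b2-high cells.

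**Figure D4:**
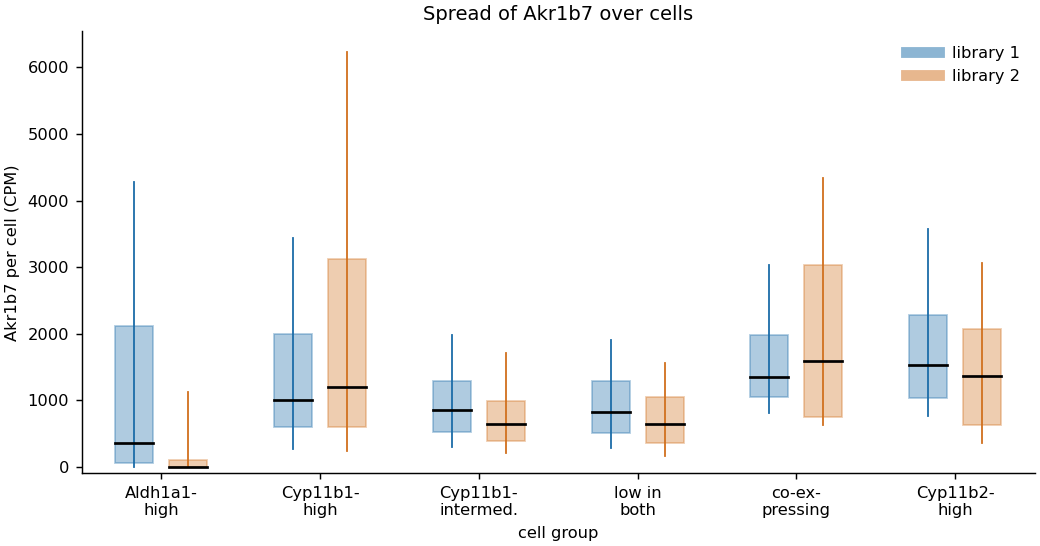
Akr1b7 per cell (CPM, before thinning) in each cell group and library; black lines are medians, boxes run from the 25th to the 75th percentile and thin lines from the 10th to the 90th. The median is 355 and 0 CPM in Aldh1a1-high cells and 1530 and 1364 CPM in Cyp11b2-high cells.

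Akr1b7 went up with Cyp11a1, and less with Star, from cell to cell. Cells were thinned to 5000 UMIs, which kept 4355 and 1594 cortical cells and left out 228 and 290 shallower ones, and the correlations below are descriptions over cells that share a library, with no test. Over all cortical cells Spearman's rho of Akr1b7 was 0.218 and 0.267 with Cyp11a1 and 0.122 and 0.159 with Star. The median rho over 6322 genes was -0.0092 and -0.00819. With Cyp11a1, Akr1b3 had a rho of 0.0708 and 0.0818 and Akr1b8 one of -0.00613 and 0.0382. Akr1b7 had a rho of 0.138 and 0.12 with the UMIs a cell held before thinning of 0.149 and 0.178 with the mitochondrial percentage, and of -0.185 and -0.174 with Malat1. The rho with the mitochondrial percentage was thus above that with Star in both libraries, and its part in these correlations was not tested.

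The relation to Cyp11a1 differed in strength between groups. In Cyp11b1-high cells rho was 0.406 and 0.49 with Cyp11a1 and 0.219 and 0.359 with Star, over 431 and 261 cells, while in Cyp11b2-high cells it was 0.195 and 0.163 with Cyp11a1 and 0.0294 and 0.0695 with Star, over 233 and 149 cells. In Cyp11b1-intermediate cells the values were 0.108 and 0.347 with Cyp11a1 and 0.106 and 0.17 with Star, and in low-in-both cells 0.222 and 0.2 with Cyp11a1 and 0.0838 and 0.0291 with Star. In Aldh1a1-high cells, of which 28 and 25 remained, rho changed sign between the libraries, at -0.132 and 0.274 with Cyp11a1 and 0.414 and -0.168 with Star. With Cyp11a1, rho was thus higher in Cyp11b1-high cells than in the other 4 groups in each library, while with Star this held in library 2 only. Within Cyp11b1-high cells ranked by Cyp11a1, the top quintile held 2502 CPM of Akr1b7 in library 1 and 4381 CPM in library 2, against 752 and 842 CPM in the bottom quintile. Ranked by Star, the top quintile held 2244 and 3592 CPM, against 897 and 1042 CPM in the bottom one. In the same ranking by Cyp11a1, Akr1b3 stood at 365 and 427 CPM in the top and 255 and 294 CPM in the bottom quintile, and Akr1b8 at 79.1 and 88.5 CPM against 64.4 and 75.5 CPM, so Akr1b7 spanned the widest range of the 3.

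**Figure D5:**
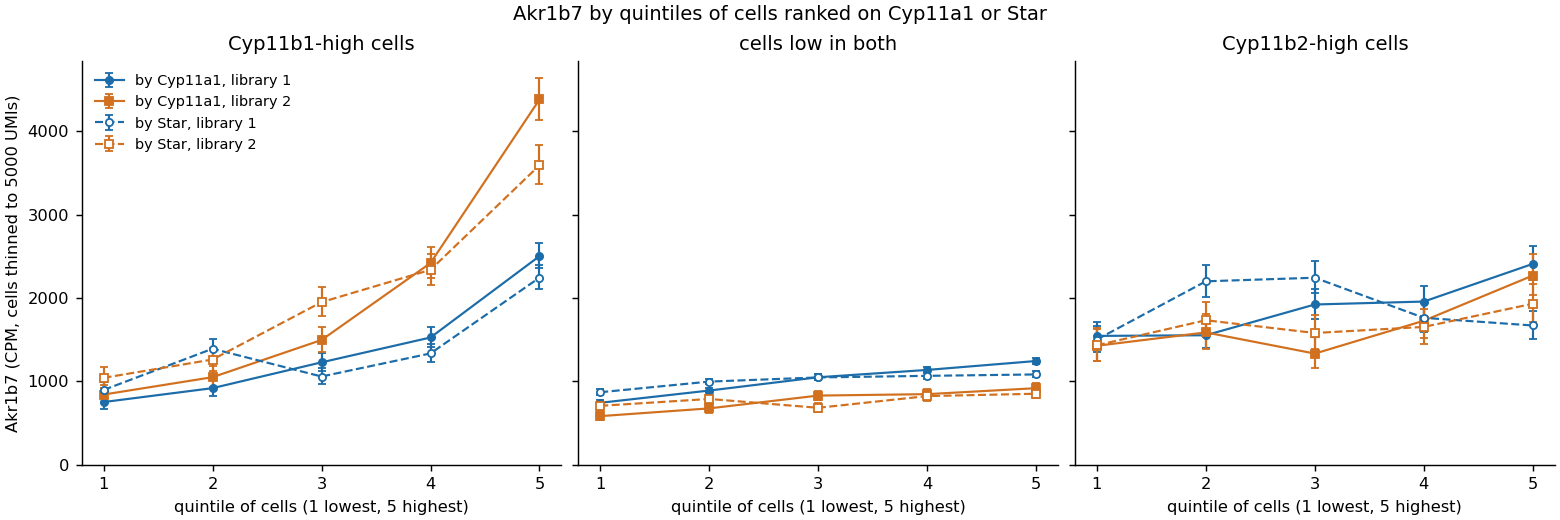
Akr1b7 (CPM, cells thinned to 5000 UMIs) in quintiles of cells ranked within library and group on Cyp11a1 (filled symbols, solid lines) or Star (open symbols, dashed lines), with exact 95% Poisson intervals. The line by Cyp11a1 climbs to 2502 and 4381 CPM in Cyp11b1-high cells and to 1244 and 918 CPM in cells low in both Cyp11b genes.

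Akr1b7 was highest in cells rich in both genes. In cortical cells above the median of both Star and Cyp11a1, Akr1b7 stood at 1500 and 1766 CPM, against 866 and 678 CPM in cells at or below both medians. Cells above the median of Cyp11a1 only had 1136 and 932 CPM, and cells above that of Star only had 1009 and 879 CPM. Each of these mixed classes lay between the extremes in both libraries.

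Between groups the relation to Cyp11a1 did not carry over. Per Cyp11a1 UMI, there were 0.14 and 0.0409 Akr1b7 UMIs in Aldh1a1-high, 0.301 and 0.39 in Cyp11b1-high and 0.58 and 0.514 in Cyp11b2-high cells. Per Star UMI, there were 0.21 and 0.0498 in Aldh1a1-high, 0.482 and 0.565 in Cyp11b1-high and 0.52 and 0.471 in Cyp11b2-high cells. Cyp11a1 rose in Aldh1a1-high over Cyp11b2-high cells (log2 difference 0.75 ± 0.12, edgeR adjusted p = 3.62e-05), where Akr1b7 fell, and Star had a log2 difference of 0.18 ± 0.14 (edgeR adjusted p = 0.371). Over the 12 sums, centred by library, Pearson's r of Akr1b7 was -0.534 with Cyp11a1 and -0.173 with Star.

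The genes most like Akr1b7 differed between single cells and group sums. Among 6322 genes of at least 20 CPM, rho over single cells of libraries 1 and 2 was highest for Fdx1 (0.409 and 0.39), the ferredoxin that passes electrons to Cyp11a1. Next came Hspe1 (0.363 and 0.37) and Hspd1 (0.3 and 0.321), the mitochondrial chaperonins. After them stood eGFP (0.287 and 0.285), a sequence of the reporter, and Slc25a3 (0.277 and 0.313), the mitochondrial phosphate carrier. The eGFP feature did not set cortical cells apart, with 2792 and 2812 CPM in lymphocytes, against 2892 CPM over all cortical cells. Cyp11a1 had rank 9, Star rank 36 and Akr1b3 rank 229. Over the 12 sums the most similar were Slc25a3 (Pearson's r 0.957), Aamp (0.955), Smim14 (0.954), Rom1 (0.954) and Lman1 (0.948), the last a cargo receptor of the secretory pathway. Only Slc25a3 stood in both sets of 5. Its level was 837 and 543 CPM in Aldh1a1-high, 1122 and 1235 CPM in Cyp11b1-high and 1413 and 1353 CPM in Cyp11b2-high cells. A high r over sums did not require a like change between all groups. Aamp stood at 181 and 161 CPM in Cyp11b2-high and 176 and 157 CPM in low-in-both cells. Akr1b7 stood at 1889 and 1692 CPM and at 1048 and 804 CPM in these 2 groups. The weight of the Aldh1a1-high sums in the r over 12 sums was not tested. Fdx1 differed from Akr1b7 at the level of groups, with 3012 and 2714 CPM in Aldh1a1-high, 2168 and 1871 CPM in Cyp11b1-high and 7620 and 8641 CPM in Cyp11b2-high cells.

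Of 16 other aldo-keto reductases, 7 were abundant enough to test. In Aldh1a1-high over Cyp11b2-high cells, 1 rose and 2 fell, against 13.6% of all genes higher and 14.4% lower. Akr1cl had normalised levels of 4275 and 5336 CPM in Aldh1a1-high and 552 and 538 CPM in Cyp11b2-high cells (log2 difference 3.13 ± 0.12, edgeR adjusted p = 4.36e-16), so it rose where Akr1b7 fell. Akr1b10, the neighbour of Akr1b7, fell with it (-1.15 ± 0.16, edgeR adjusted p = 6.23e-06), at 125 and 73.6 normalised CPM in Aldh1a1-high and 226 and 228 in Cyp11b2-high cells. Kcnab2, a potassium channel subunit of aldo-keto reductase fold, had no UMI in Aldh1a1-high cells and 47 UMIs (6.0 CPM) in Cyp11b2-high cells, which makes it at least 1.96-fold lower against a floor of 3 UMIs over the group. In Cyp11b1-high over Cyp11b2-high cells, 2 rose and 2 fell, among them Akr1cl (1.75) and Akr1b10 (-0.30), against 14.1% of all genes higher and 16.5% lower. In Aldh1a1-high over Cyp11b1-high cells Akr1cl rose (1.37) and Akr1b10 fell (-0.84), against 8.14% and 6.93%.

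Genes around Akr1b3 in the polyol pathway and the response to osmotic stress moved in both directions. Of 9 tested, 4 rose and 3 fell in Aldh1a1-high over Cyp11b2-high cells, against 13.6% of all genes higher and 14.4% lower, with a median log2 difference of -0.04, against -0.05 over all genes. Sord, which oxidises the sorbitol made by Akr1b3 to fructose, fell (log2 difference -1.26 ± 0.19, edgeR adjusted p = 1.64e-05), at 49.6 and 76.1 normalised CPM in Aldh1a1-high and 144 and 149 in Cyp11b2-high cells. Khk, which phosphorylates fructose, rose (2.17 ± 0.27, edgeR adjusted p = 1.02e-06), at 77.2 and 83.5 normalised CPM in Aldh1a1-high and 19.6 and 15.2 in Cyp11b2-high cells. The hexokinase Hk1 rose (1.26), and Hk2 was at least 37.3-fold higher, with 14 UMIs in Aldh1a1-high and none in Cyp11b2-high cells, against a floor of 3 UMIs over the group. Nfat5, the transcription factor of the osmotic response, fell (-0.89). In Cyp11b1-high over Cyp11b2-high cells, where 3 rose and 3 fell, against 14.1% of all genes higher and 16.5% lower, Khk also rose (1.15) and Sord also fell (-0.84), while Nfat5 rose (0.35). Against Cyp11b1-high cells, 4 rose and 1 fell in Aldh1a1-high cells, against 8.14% and 6.93% of all genes, the one being Nfat5 (-1.24).

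Among other enzymes that handle aldehydes, more rose than fell in Aldh1a1-high cells. Of 22 tested, 10 rose and 2 fell against Cyp11b2-high cells, against 13.6% of all genes higher and 14.4% lower, with a median log2 difference of 0.47, against -0.05 over all genes. The mitochondrial aldehyde dehydrogenase Aldh1b1 (2.08), the carbonyl reductase Dcxr (1.85) and Adhfe1 (2.54) rose most, and Gsta4 (-0.81), a glutathione transferase of lipid aldehydes, and Aldh2 (-0.61), a mitochondrial aldehyde dehydrogenase, fell. In Cyp11b1-high over Cyp11b2-high cells 8 rose and 1 fell, against 14.1% of all genes higher and 16.5% lower, led by Adhfe1 (2.22) and the alcohol dehydrogenase Adh1 (2.08). In Aldh1a1-high over Cyp11b1-high cells 5 rose and 2 fell, against 8.14% and 6.93% of all genes, and there Adh1 fell (-1.23).

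Of 19 measured genes of prostaglandin synthesis, export and reception, 11 were tested. Among these, 5 rose and none fell in Aldh1a1-high over Cyp11b2-high cells, against 13.6% of all genes higher and 14.4% lower. Their median log2 difference was 0.62, against -0.05 over all genes. The prostaglandin exporter Abcc4 rose (1.96 ± 0.36, edgeR adjusted p = 0.000179). Ptgds and Ptges, the synthases of prostaglandins D2 and E2, were called higher at low levels, with 9.19 and 9.82 normalised CPM of Ptgds in Aldh1a1-high and 0.684 and 0.339 in Cyp11b2-high cells. In Cyp11b1-high over Cyp11b2-high cells 4 rose and 2 fell, against 14.1% of all genes higher and 16.5% lower, with the cyclooxygenase Ptgs2 falling most (-2.59). In Aldh1a1-high over Cyp11b1-high cells 2 rose and none fell, against 8.14% and 6.93% of all genes.

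The 17 genes of cholesterol side-chain cleavage and steroidogenesis were all tested, and 4 rose and 9 fell in Aldh1a1-high over Cyp11b2-high cells, against 13.6% of all genes higher and 14.4% lower (median log2 difference -0.45, against -0.05 over all genes). Hsd3b1 (1.58), a 3β-hydroxysteroid dehydrogenase, and Mrap (1.16), the accessory protein of the ACTH receptor, rose. Mc2r, the receptor itself, fell with Akr1b7 (-1.86 ± 0.22, edgeR adjusted p = 3.69e-07), at 136 and 17.2 normalised CPM in Aldh1a1-high and 337 and 268 in Cyp11b2-high cells. Fdx1 (-1.54) and the 21-hydroxylase Cyp21a1 (-1.43) fell as well. In Cyp11b1-high over Cyp11b2-high cells 3 rose and 5 fell, against 14.1% of all genes higher and 16.5% lower, with Fdx1 (-2.09) falling most and Mc2r rising (0.29). Against Cyp11b1-high cells, 3 rose and 4 fell in Aldh1a1-high cells, against 8.14% and 6.93% of all genes, with Mc2r falling most (-2.15), then Cyp21a1 (-1.85).

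Of 20 target genes of NRF2, the regulator of the oxidative stress response, 19 were tested, and 9 rose and 2 fell in Aldh1a1-high over Cyp11b2-high cells, against 13.6% of all genes higher and 14.4% lower (median log2 difference 0.47, against -0.05 over all genes). Taldo1 (2.23) and Me1 (1.80), enzymes that serve NADPH supply, and the haem oxygenase Hmox1 (1.91) rose, and G6pdx (-0.60) and Txnrd1 (-0.55) fell. In Cyp11b1-high over Cyp11b2-high cells 8 rose and 2 fell, against 14.1% of all genes higher and 16.5% lower, and in Aldh1a1-high over Cyp11b1-high cells 5 rose and 1 fell, against 8.14% and 6.93%. None of the 3 Akr1b members is in any of these lists.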

How the data were processed

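The authors deposited unnormalised UMI counts per gene and cell barcode for each library, made with Cell Ranger 3.1.0 on build mm10 per the file headers and the submitters' processing notes. The sources used here do not state the rule by which barcodes were called cells. Libraries were prepared with a 3′ kit, version 3.1, per the labels' protocols. Of 31057 features, 30934 matched GENCODE vM21.

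Barcodes under 1000 UMIs or 500 genes, or above 30% mitochondrial UMIs, were removed (148 and 276 in libraries 1 and 2), and scrublet (scanpy 1.11.5) removed its highest scorers at 0.8% per 1000 barcodes, 203 and 42 cells. Pairs of similar cells can remain after this, and no correction for free RNA was made. The median depth was 18198 and 14817 UMIs per kept cell. Cells with UMIs of at least 3 lymphocyte or myeloid markers, or at least 2 UMIs of at least 3 medullary, endothelial or stromal markers, were set aside. UMIs were summed per group and library and fitted with edgeR 4.0.16 (R 4.3.3; TMM, low-count filter, terms for group and library, 5 residual degrees of freedom). Normalised CPM are TMM-scaled, and percentages of genes called leave out the 3 grouping genes. The threshold was an adjusted p of 0.05. The library term pairs sums from the same library. The fit was tested on simulated data. Intervals are exact 95% Poisson or Clopper-Pearson intervals and cover counting error only, with a floor of 3 UMIs for a count of 0. Transcripts were aligned with blastn 2.17.0.

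The members, gene lists and marker lists were chosen with earlier results of these data known. Named genes were the members, Star and Cyp11a1, up to 3 called genes per list, direction and comparison by size, and the 5 genes most like Akr1b7 over sums and over cells. Akr1b10, in one of the lists, was also described throughout as the neighbour of Akr1b7. Alternatives were RLE size factors, no low-count filter, no library term, halved and doubled thresholds, thinned cells, no doublet removal, a limit of 15% on mitochondrial UMIs, a minimum of 1500 genes, DESeq2 1.42.0 and each library alone.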

Additional observations from a re-analysis of the deposited data

How the results depend on the processing

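The fall of Akr1b7 in Aldh1a1-high cells kept its direction under all 12 alternatives, from -2.94 to -0.93 against Cyp11b2-high and from -3.08 to -0.74 against Cyp11b1-high cells. It stayed past the threshold in each with a test, except without the replicate block (the library term) against Cyp11b1-high cells, at -1.60, where Akr1b8 also lost its call, at 0.67. Without the block, 1862, 752 and 569 genes were called in Aldh1a1-high over Cyp11b2-high, Cyp11b1-high over Cyp11b2-high and Aldh1a1-high over Cyp11b1-high cells, against 3234, 3528 and 1738 with it. Thinned cells gave 1537, 1756 and 730 calls from shallower sums, and an Akr1b8 difference of 0.13 in the last comparison. Akr1b8 in Aldh1a1-high over Cyp11b2-high cells passed with RLE size factors (0.61), no low-count filter (0.49) and halved thresholds (0.63). Akr1b3 passed with doubled thresholds against Cyp11b2-high (-0.43) and Cyp11b1-high cells (-0.49), and without the low-count filter against Cyp11b1-high cells (-0.33). Between Cyp11b1-high and Cyp11b2-high cells, uncalled signs changed for Akr1b3 with halved thresholds (-0.010) and for Akr1b7 with doubled thresholds (0.15), which called 2303 genes. The cause of these changes was not tested.

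Each library alone gave, over Cyp11b2-high cells, Akr1b8 differences of 0.49 and 0.75 in Aldh1a1-high cells and, in Cyp11b1-high cells, Akr1b3 differences of 0.017 and 0.103 and differences of opposite sign for Akr1b7 (-0.51 and 0.16) and Akr1b8 (-0.24 and 0.06), and Akr1b8 differences of 0.73 and 0.69 in Aldh1a1-high over Cyp11b1-high cells, with no test. Without thinning, rho of Akr1b7 was 0.162 and 0.199 with Star and 0.265 and 0.323 with Cyp11a1 in libraries 1 and 2. Depth limits Akr1b8 most, with 65 and 42 UMIs in Aldh1a1-high cells.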

Other observations

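Cells with UMIs of at least 3 myeloid markers, which entered no comparison, had 1006 and 1066 CPM of Akr1b7 in libraries 1 and 2, although only 34.4% and 23.8% of these 61 and 42 cells had an Akr1b7 UMI. Single cells among them held up to 175 and 101 Akr1b7 UMIs. Star stood at 1650 and 1538 CPM in the same cells and was seen in 41.0% and 35.7% of them. Per Star UMI there were 0.61 and 0.693 Akr1b7 UMIs, against 0.42 and 0.394 in all cortical cells.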
